A study of Mus musculus with 20 samples.

Results

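The data described here are the RNA-seq libraries of cardiac fibroblasts at week 2 after myocardial infarction (W2, replicates 1 and 2), set against those of uninjured hearts (Uninj, replicates 1 and 2). They are 4 of the 20 libraries of the study, chosen by their labels, and all 25746 genes of the deposited table were considered. The study profiled such cells by RNA-seq and by ATAC-seq, which reads accessible chromatin, in uninjured hearts and at day 3 (D3), day 7 (D7), week 2 and week 4 (W4) after infarction, with 2 libraries per assay and group. Cells came from mouse hearts digested with collagenase and dispase and were sorted as eGFP-positive cells, with the gate set on wild-type cells without eGFP. The eGFP label was switched on by a tamoxifen-induced MerCreMer driven from Tcf21, the gene of a transcription factor of resident cardiac fibroblasts, so it follows these cells and their progeny but not fibroblasts of another origin. All groups, the uninjured one included, received tamoxifen at 75 mg/kg per day for 5 days, and each RNA library was made from 10000 sorted cells with a low-input kit. The condition of the W2 samples is given as myocardial infarction, with no sham-operated group among the samples analysed here, and neither the age of the mice nor the part of the heart is stated. Whether replicates of a group are different mice is not stated, and p-values therefore reflect only how far these libraries spread, which may be technical.

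After an infarct, resident fibroblasts leave their resting state, divide, take on contractile and matrix-secreting features and lay down the scar. Collagens are secreted as precursors, trimmed, and tied together by lysyl oxidases, while matricellular proteins such as periostin and tenascin regulate how cells hold the new matrix. By the second week in mice the phase of division has passed and the scar is maturing, and later scar fibroblasts are known to express cartilage and tendon matrix genes.

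Sequencing depth was even, with 18402542 and 17244844 counts in the W2 libraries and 18213087 and 18592435 in the Uninj libraries. The 2 W2 libraries stood apart from each other in other ways. Mitochondrially encoded genes took 4.21% of counts in W2 replicate 1 and 1.15% in W2 replicate 2, against 2.66% and 2.71% in Uninj. W2 replicate 2 lay at -132.1 on the third principal component of all 10 RNA libraries, whose other 9 libraries lay between -18.1 and 55.4. Counts of Y-linked genes were 0.0429% and 0.0426% of the total in W2 and 2.2e-05% and 6.45e-05% in Uninj, and the sex of the mice is not stated. Injury and whatever else goes with the Y-linked reads, such as sex, cannot be told apart within these 4 libraries, for any difference between W2 and Uninj. Y-linked Ddx3y, an RNA helicase gene, had 275 and 278 CPM (counts scaled to library size) in W2 and 0.107 and 0.375 CPM in Uninj. Values are therefore given per library.

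Fibroblast identity was checked on 11 defining genes. Of these, 5 passed the test: the collagen genes Col1a1, Col1a2 and Col3a1 rose, by 2.12, 2.22 and 1.71 on the log2 scale, and Pdgfra and Gsn fell by 1.80 and 2.53, as described further on. Ddr2, a collagen receptor gene, had 262 and 201 CPM in W2 and 478 and 498 CPM in Uninj and did not pass (adjusted p = 0.0784). Lum, Vim, Dcn, Thy1 and Tcf21 did not pass either. Lum, a matrix proteoglycan gene, had 7327 and 7081 CPM in W2 and 7047 and 7942 CPM in Uninj. Dcn, another proteoglycan gene, had 14260 and 10299 CPM in W2 and 19803 and 24092 CPM in Uninj. Thy1 was low throughout, at 5.27 and 7.2 CPM in W2 and 12.5 and 9.11 CPM in Uninj. Tcf21 itself had 10.5 and 36.2 CPM in W2 and 23.1 and 31.6 CPM in Uninj, ranges that overlap, with an edgeR log2 fold change of -0.23 ± 0.53 (SE, adjusted p = 0.965). All 11 genes had counts in all 4 libraries.

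Of 14968 genes tested, 283 (1.89%) passed an adjusted p of 0.05 in edgeR's quasi-likelihood test, in a fit of all 10 RNA libraries. Of these, 215 (1.44%) were higher and 68 (0.454%) lower in W2 than in Uninj. The median log2 fold change was 2.58 among the genes called higher, -2.34 among those called lower and -0.01 over all tested genes. Both W2 libraries lay above both Uninj libraries for 2884 genes (19.3%) and below both for 3351 genes (22.4%), and all 283 called genes were among these. When 1 of the 4 libraries was dropped at a time, 90 of the 283 genes passed in every such fit, 75 of them higher and 15 lower in W2. Without W2 replicate 1 the test called 450 genes and without W2 replicate 2 it called 164. Without Uninj replicate 2 it called 134, and with a term for Y-linked counts 60, all 60 of them among the 283.

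Among the 12 most increased abundant genes were regulators of the extracellular matrix, signalling genes and macrophage genes. Cthrc1, which encodes a secreted glycoprotein of activated fibroblasts (chr15:39076932-39087121, GRCm38), had 1403 and 2109 CPM in W2 and 15.5 and 10.2 CPM in Uninj. Its log2 fold change was 7.09 ± 0.35 (SE, edgeR adjusted p = 7.92e-07). Both W2 libraries were far above either Uninj library, and the call held whichever of the 4 was left out. Sfrp2, a secreted Wnt-binding protein gene, had 4514 and 3214 CPM in W2 and 84.4 and 132 CPM in Uninj (log2 fold change 5.16 ± 0.36, adjusted p = 1.4e-05). C1qtnf3, a secreted protein gene of the C1q and TNF superfamily, had 566 and 764 CPM in W2 and 8.69 and 6.59 CPM in Uninj (6.44 ± 0.62, adjusted p = 0.000773). The C1qtnf3 call was lost without Uninj replicate 2 (adjusted p = 0.0714). Ddah1, which breaks down methylated arginines that inhibit nitric oxide synthase, had 408 and 937 CPM in W2 and 18 and 9.06 CPM in Uninj, with W2 replicate 2 the higher.

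Some of the increased genes were barely detected in uninjured cells. Gpr176, an orphan receptor gene, had 646 and 615 counts in W2, or 35.9 and 34.6 CPM, and 3 and 1 counts in Uninj (log2 fold change 8.27 ± 0.49, edgeR adjusted p = 4.45e-06). Kif26b, a kinesin family gene, had 645 and 507 counts in W2 and 0 and 3 counts in Uninj, a ratio of 401 with a counting interval of 137 to 1950. Both genes passed with any of the 4 libraries left out. Hp, the haptoglobin gene, had 50.7 and 20.9 CPM in W2 and 0.0533 and 0.322 CPM in Uninj, and its call (adjusted p = 0.0238) was lost when any of the compared libraries was dropped: adjusted p was 0.0692 without W2 replicate 1, 0.0862 without W2 replicate 2, 0.362 without Uninj replicate 1 and 0.389 without Uninj replicate 2. Kcnj15, an inward rectifier potassium channel gene, had 122 and 113 CPM in W2 and 4.48 and 2.68 CPM in Uninj (5.03 ± 0.52, adjusted p = 0.000405). The potassium channel gene kept its call in all 4 leave-outs.

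**Figure D1:**
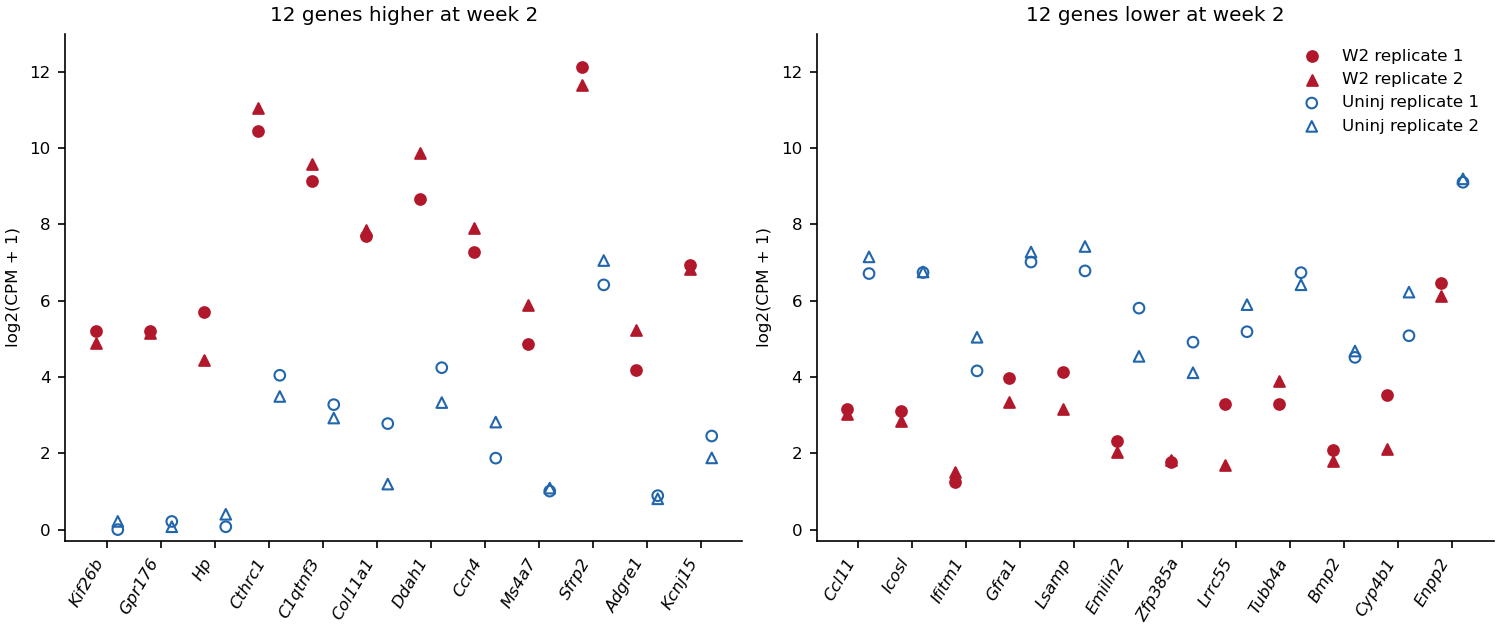
Expression of the 12 most increased and the 12 most decreased genes among those called with a mean of at least 20 CPM in the higher group. Predicted, mitochondrial, ribosomal, immunoglobulin and Y-linked genes were left out. The vertical axis is log2(CPM + 1), with red filled symbols for the 2 W2 libraries and blue open symbols for the 2 Uninj libraries. That both W2 symbols lie on the same side of both Uninj symbols was a condition for choosing these genes. Cthrc1, for example, had 1403 and 2109 CPM in W2 against 15.5 and 10.2 CPM in Uninj.

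Matrix genes formed the group with the most increased members. Of 33 tested genes of fibrillar collagens and matrix glycoproteins, 19 rose and 1 fell, with a median log2 fold change of 2.09. The shares of all tested genes to set beside this and the following lists were 1.44% called higher and 0.454% called lower. The summed level of the list was 48620 and 45596 CPM in W2 against 17604 and 14168 CPM in Uninj. Postn, the periostin gene, had 6437 and 3333 CPM in W2 and 630 and 431 CPM in Uninj (log2 fold change 3.20 ± 0.33, edgeR adjusted p = 0.000247). Fn1, the fibronectin gene, had 1534 and 1508 CPM in W2 and 175 and 124 CPM in Uninj (3.35 ± 0.24, adjusted p = 1.81e-05). The W2 libraries were close on Fn1, and W2 replicate 1 was the higher on Postn. Col11a1, a minor fibrillar collagen that sets fibril width, had 206 and 231 CPM in W2 and 5.86 and 1.29 CPM in Uninj (5.93 ± 0.57, adjusted p = 0.000405). Tnc, the tenascin C gene, had 89.4 and 72.9 CPM in W2 and 7.14 and 1.55 CPM in Uninj (4.22 ± 0.55, adjusted p = 0.00392).

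The major scar collagens rose less steeply. Col1a1 had 3514 and 2221 CPM in W2 and 903 and 415 CPM in Uninj (log2 fold change 2.12 ± 0.42, edgeR adjusted p = 0.025). Col1a2, the partner chain of collagen I, had 4782 and 4509 CPM in W2 and 1233 and 759 CPM in Uninj (2.22 ± 0.27, adjusted p = 0.000851). Col3a1 had 5362 and 3979 CPM in W2 and 2041 and 810 CPM in Uninj (1.71 ± 0.38, adjusted p = 0.0443). The groups did not overlap in any of these chains, but the Col1a1 call was lost without W2 replicate 1 (adjusted p = 0.0846) or Uninj replicate 2 (0.096). The Col3a1 call was lost without W2 replicate 1 (0.133), W2 replicate 2 (0.107) or Uninj replicate 2 (0.136). Col8a1, a short-chain collagen, had 1097 and 1293 CPM in W2 and 289 and 235 CPM in Uninj and kept its call in all 4 leave-outs. Of the CCN family of matricellular proteins, Ccn4 had 155 and 237 CPM in W2 and 2.67 and 6.06 CPM in Uninj (5.49 ± 0.47, adjusted p = 0.000134), and Ccn5 and Ccn2 also rose, by 3.98 and 2.59 on the log2 scale; the Ccn2 call was lost without W2 replicate 2 (0.0724), Uninj replicate 1 (0.265) or Uninj replicate 2 (0.205). The exception in the list was Tgfbi, an integrin-binding matrix protein gene induced by TGF-beta, which fell to 120 and 45.7 CPM in W2, against 321 and 282 CPM in Uninj (-1.87 ± 0.40, adjusted p = 0.041). The Tgfbi call was lost without W2 replicate 2 (0.117), Uninj replicate 1 (0.176) or Uninj replicate 2 (0.14). Across single left-out libraries, the list had between 14 and 18 increased members, and with the Y-linked term it had 9.

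Genes that modify and crosslink collagen moved as a minority, with 4 of 27 higher and none lower, and a median log2 fold change of 0.42. These were Lox, Loxl3, P4ha3 and Plod2. Lox, the lysyl oxidase gene, had 1154 and 1054 CPM in W2 and 54.7 and 38.6 CPM in Uninj (4.56 ± 0.32, edgeR adjusted p = 1.4e-05). P4ha3, a subunit of a prolyl hydroxylase, had 55.4 and 95.8 CPM in W2 and 3.09 and 2.84 CPM in Uninj (4.67 ± 0.37, adjusted p = 3.4e-05). Plod2, which hydroxylates lysines used in crosslinks, had 351 and 401 CPM in W2 and 90.4 and 85.7 CPM in Uninj (2.10 ± 0.23). Lox, P4ha3 and Plod2 passed in all 4 leave-outs, while the Loxl3 call was lost without W2 replicate 1 (adjusted p = 0.0896) or Uninj replicate 1 (0.15).

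Elastic fibre genes went both ways: 4 of 18 rose and 2 fell, with a median of 0.48. Ltbp2, a microfibril-associated protein gene, had 245 and 259 CPM in W2 and 16.7 and 9.27 CPM in Uninj (4.28 ± 0.35, edgeR adjusted p = 4.53e-05). Fbn2, the fibrillin of growing tissue, had 66.1 and 45.5 CPM in W2 and 4.26 and 2.36 CPM in Uninj (4.07 ± 0.46, adjusted p = 0.000475). Both passed in all 4 leave-outs. Eln, the elastin gene, had 334 and 411 CPM in W2 and 61.4 and 29.2 CPM in Uninj (3.04 ± 0.58, adjusted p = 0.0363), a call lost without W2 replicate 1 (0.095), W2 replicate 2 (0.243), Uninj replicate 1 (0.129) or Uninj replicate 2 (0.42). Emilin2, an elastin interface protein gene, was lower, with 4 and 3.09 CPM in W2 and 55 and 22.3 CPM in Uninj (-3.44 ± 0.58, adjusted p = 0.00729), a call lost without W2 replicate 2 (0.0707) or Uninj replicate 1 (0.0729).

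Of 30 cartilage and tendon genes tested, 4 rose (Comp, Matn3, Tnmd and Fmod) and none fell, with a median of 1.01. Comp, a cartilage matrix protein gene that assembles collagen, had 1268 and 1214 CPM in W2 and 86.3 and 61.4 CPM in Uninj (log2 fold change 4.07 ± 0.58, edgeR adjusted p = 0.00644). The 2 W2 libraries were close together and far above Uninj, but the call was lost without W2 replicate 2 (adjusted p = 0.0703), Uninj replicate 1 (0.159) or Uninj replicate 2 (0.27). Matn3, a matrilin gene, had no count in either Uninj library and 26.3 and 7.14 CPM in W2, which was at least 104-fold higher against a floor of 3 counts per library. Fmod, a collagen-binding proteoglycan gene, had 987 and 521 CPM in W2 and 120 and 110 CPM in Uninj (2.72 ± 0.51, adjusted p = 0.0271), and its adjusted p was 0.0977 without W2 replicate 1, 0.0556 without W2 replicate 2, 0.321 without Uninj replicate 1 and 0.466 without Uninj replicate 2. Tnmd, a tendon cell gene, had 87.4 and 28.4 CPM in W2 and 5.06 and 2.09 CPM in Uninj, and its call was lost without Uninj replicate 2 (0.0605). Aspn, another small leucine-rich proteoglycan gene, had 4278 and 4951 CPM in W2 and 1167 and 1031 CPM in Uninj (2.07 ± 0.22, adjusted p = 0.000405) and passed in all 4 leave-outs; with Fmod it made up the 2 increased members among 16 proteoglycan genes.

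Further scar cartilage genes were high in W2 replicate 1 and did not pass in edgeR. Cilp, a cartilage intermediate layer protein gene, had 1816 and 404 CPM in W2 and 164 and 132 CPM in Uninj (2.91 ± 0.65, edgeR adjusted p = 0.0737). Thbs4, a tendon matrix thrombospondin gene, had 460 and 115 CPM in W2 and 32.9 and 3.91 CPM in Uninj (3.96 ± 1.05, adjusted p = 0.159). In both genes each W2 library lay above each Uninj library, with W2 replicate 1 well above W2 replicate 2. Both passed with limma-voom (adjusted p = 0.0276 for Cilp and 0.0318 for Thbs4) and with DESeq2 (0.000785 and 0.0041). Chad, the chondroadherin gene, had 130 and 57.3 CPM in W2 and 70 and 54.2 CPM in Uninj, which overlap. Cilp2 had 18.2 and 6.64 CPM in W2 and 2.13 and 0 CPM in Uninj (adjusted p = 0.47). Neither Chad nor Cilp2 passed with limma-voom or DESeq2.

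The contractile genes that define myofibroblasts differed between the W2 libraries. Of 27 tested, 4 rose (Palld, Actn1, Fhl2 and Csrp2) and none fell, with a median of 0.59. Actn1, an actin-crosslinking alpha-actinin gene, had 101 and 179 CPM in W2 and 35 and 23.4 CPM in Uninj (2.26 ± 0.30, edgeR adjusted p = 0.00169) and passed in all 4 leave-outs. Palld, an actin scaffold gene, had 218 and 300.02 CPM in W2 and 51.1 and 17.3 CPM in Uninj (2.92 ± 0.44, adjusted p = 0.00604), a call lost without W2 replicate 2 (0.0702). The calls of Fhl2, a LIM-domain gene, and Csrp2 were lost without Uninj replicate 2 (0.155 and 0.0746), and that of Fhl2 also without W2 replicate 2 (0.128). Acta2, the smooth muscle actin gene used to mark myofibroblasts, did not pass: it had 231 and 518 CPM in W2 and 191 and 91.9 CPM in Uninj (1.40 ± 0.45, adjusted p = 0.207). Both W2 values lay above both Uninj values, with W2 replicate 1 close to Uninj replicate 1. Tagln, an actin-binding protein gene of the same program, had 28.1 and 151 CPM in W2 and 24 and 10.6 CPM in Uninj. W2 replicate 2 exceeded W2 replicate 1 in 20 of the 27 genes, and 7 of the list passed without W2 replicate 1, against 2 without W2 replicate 2. The summed level of pericyte and smooth muscle markers was also higher in W2 replicate 2, at 652 and 1415 CPM in W2 and 1112 and 580 CPM in Uninj, and its part in the contractile values was not tested.

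Genes of resting fibroblasts were lower in W2. In the list of 40, 7 fell and 1 rose, their median log2 change being -1.42. In both W2 libraries 35 of the 40 lay below both Uninj libraries. Among all tested genes 0.454% were called lower, and 22.4% lay below both Uninj libraries in both W2 libraries. Gsn, the actin-severing gelsolin gene and one of the most abundant transcripts of resting fibroblasts, had 6765 and 3364 CPM in W2 and 30111 and 28491 CPM in Uninj (-2.53 ± 0.54, edgeR adjusted p = 0.0452). Pdgfra, the platelet-derived growth factor receptor that marks cardiac fibroblasts, had 274 and 160 CPM in W2 and 731 and 779 CPM in Uninj (-1.80 ± 0.31, adjusted p = 0.00805). The 2 Uninj libraries agreed closely on both genes. Lsamp, a cell adhesion gene, had 16.5 and 7.93 CPM in W2 and 109 and 171 CPM in Uninj (-3.52 ± 0.52, adjusted p = 0.00346) and passed in all 4 leave-outs. Ccl11, the eotaxin gene, had 7.88 and 7.14 CPM in W2 and 104 and 141 CPM in Uninj (-4.03 ± 0.66, adjusted p = 0.00793). Cd34 and Ly6a, surface markers of resting mesenchymal cells, fell by 1.34 and 1.37 on the log2 scale, and Mfap4, a microfibril gene, was the member that rose, by 1.70.

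The number of resting genes called depended on single libraries and on the test. Without W2 replicate 1 the list had 10 lower members, without W2 replicate 2 it had 2, and without either Uninj replicate it had 5. With the Y-linked term no member passed, and DESeq2 called 24 of them lower. The Gsn call was lost without W2 replicate 1 (adjusted p = 0.0589), W2 replicate 2 (0.282), Uninj replicate 1 (0.354) or Uninj replicate 2 (0.439). That of Pdgfra was lost without W2 replicate 2 (0.0704), and that of Ccl11 without W2 replicate 1 (0.0637) or W2 replicate 2 (0.13). Cd34 was lost without W2 replicate 2 (0.152), and Ly6a without W2 replicate 1 (0.164), Uninj replicate 1 (0.196) or Uninj replicate 2 (0.0619).

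The other strongly decreased genes had varied functions. Gfra1, the co-receptor of glial cell line-derived neurotrophic factor (chr19:58235604-58455909, GRCm38), had 14.6 and 9.17 CPM in W2 and 128 and 154 CPM in Uninj (-3.57 ± 0.33, edgeR adjusted p = 0.000134). Tubb4a, a beta-tubulin gene, had 8.77 and 14 CPM in W2 and 106 and 84.6 CPM in Uninj (-3.06 ± 0.36, adjusted p = 0.000773). Both passed in all 4 leave-outs. Icosl, a costimulatory ligand of T cells, had 7.6 and 6.19 CPM in W2 and 106 and 107 CPM in Uninj (-3.95 ± 0.58, adjusted p = 0.00355), and was lost without W2 replicate 2 (0.0583). Enpp2, the autotaxin gene whose product makes lysophosphatidic acid, had 87.2 and 68.5 CPM in W2 and 550 and 586 CPM in Uninj (-2.87 ± 0.46, adjusted p = 0.00908). The Enpp2 call was lost without W2 replicate 1 (0.0661), W2 replicate 2 (0.161) or Uninj replicate 2 (0.0707). The remaining genes of the 12 most decreased abundant genes were Ifitm1, Emilin2, Zfp385a, Lrrc55, Bmp2 and Cyp4b1, whose log2 fold changes lay between -3.91 and -2.95. None of these calls held with each library left out in turn. Lamb1, a laminin chain gene with 153 and 103 CPM in W2 and 454 and 427 CPM in Uninj, was the only 1 of 22 basement membrane genes to pass.

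**Figure D2:**
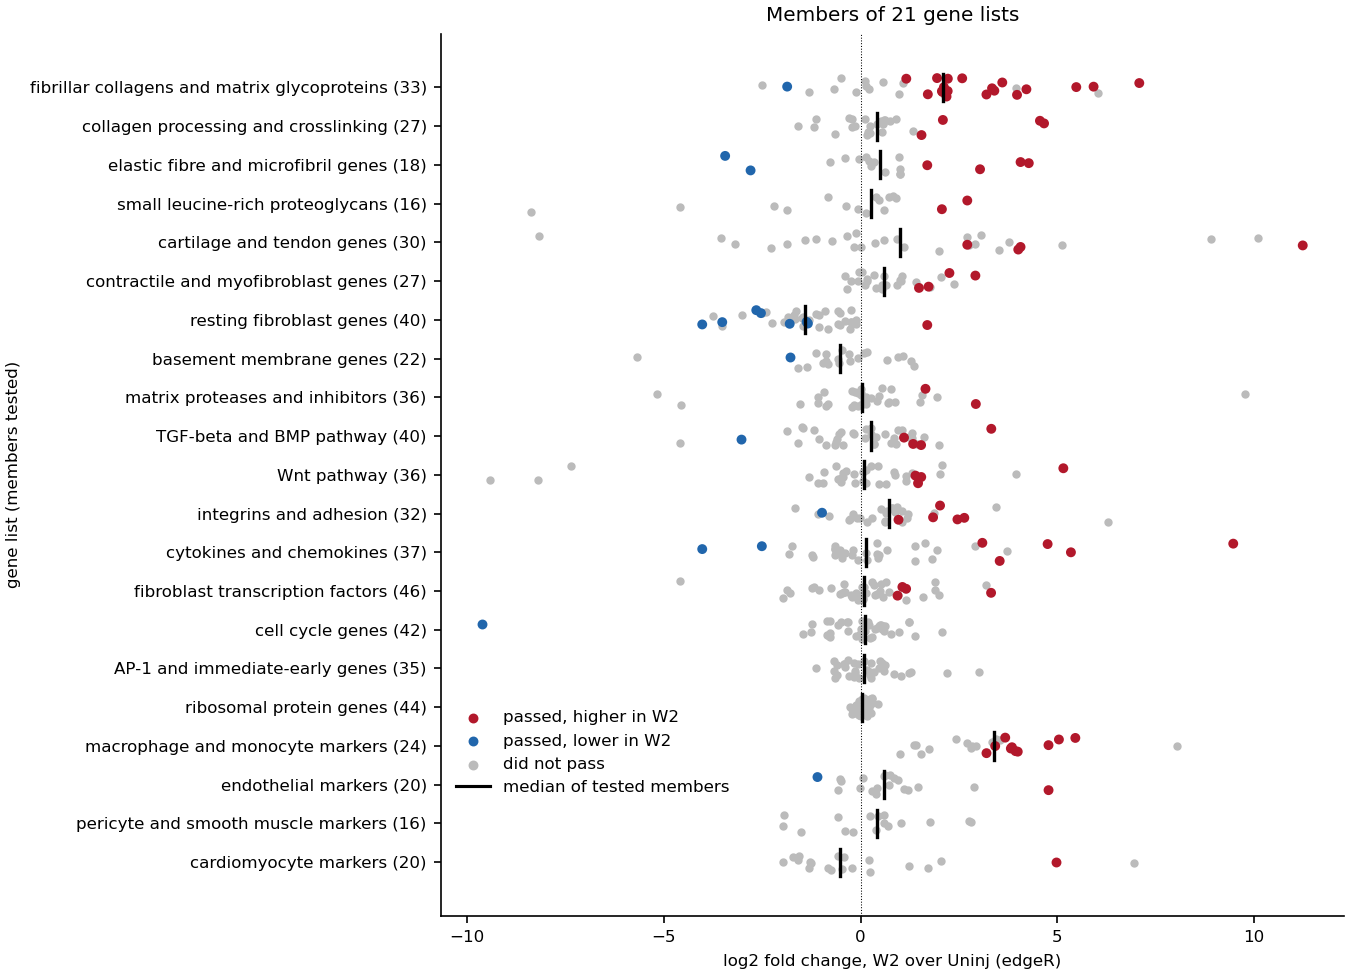
Log2 fold change of W2 over Uninj (horizontal axis) for each tested member of 21 gene lists, coloured by whether it passed edgeR's test and in which direction, with the list median as a black line. Fibrillar collagens and matrix glycoproteins (median 2.09) and macrophage markers (3.39) lie to the right, and resting fibroblast genes (-1.42) to the left.

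Most tested signalling genes were not called, and 1.89% of all tested genes were. In the Wnt pathway, 4 of 36 tested genes rose and none fell (median 0.09). All were extracellular or intracellular antagonists: Sfrp2, Frzb, Sfrp1 and Nkd2. Frzb, a secreted Wnt-binding protein gene, had 568 and 553 CPM in W2 and 190 and 194 CPM in Uninj (1.54 ± 0.21, edgeR adjusted p = 0.00185) and, like Sfrp2, passed in all 4 leave-outs. The calls of Sfrp1 and Nkd2 were lost without Uninj replicate 2 (0.127 and 0.052), that of Sfrp1 also without W2 replicate 2 (0.0971) and that of Nkd2 also without Uninj replicate 1 (0.0673). Dkk3, a Dickkopf family gene, had 1004 and 660 CPM in W2 and 489 and 439 CPM in Uninj and did not pass (0.84 ± 0.25, adjusted p = 0.136). Of 40 TGF-beta and BMP genes, 4 rose and 1 fell (median 0.27). Fst, the follistatin gene whose product binds activins, had 85.3 and 163 CPM in W2 and 14.2 and 10.6 CPM in Uninj (3.33 ± 0.40, adjusted p = 0.000851). Tgfb3, a TGF-beta ligand, and Id1, a target of BMP signalling, rose by 1.54 and 1.34 on the log2 scale, and the ligand gene Bmp2 fell to 3.22 and 2.48 CPM in W2, against 21.9 and 24.7 CPM in Uninj (-3.03 ± 0.67, adjusted p = 0.0382). The Bmp2 call was lost in all 4 leave-outs, at 0.0755 without W2 replicate 1, 0.204 without W2 replicate 2, 0.163 without Uninj replicate 1 and 0.287 without Uninj replicate 2. Id1 was lost without W2 replicate 2 (0.131) or Uninj replicate 1 (0.196), and Tgfb3 without W2 replicate 1 (0.113), Uninj replicate 1 (0.0769) or Uninj replicate 2 (0.222).

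In the IGF axis 2 of 19 genes rose. Igfbp2, an IGF-binding protein gene, had no count in Uninj and 13.7 and 22.8 CPM in W2, at least 114-fold higher against the floor of 3 counts per library, although its call (edgeR adjusted p = 0.0235) was lost without W2 replicate 2 (0.0858), Uninj replicate 1 (0.0878) or Uninj replicate 2 (0.116). Among 39 growth factor receptors and ligands, 2 rose and 3 fell (median 0.75). Ereg, an EGF receptor ligand gene, had 26.8 and 38.9 CPM in W2 and 1.97 and 4.18 CPM in Uninj (3.41 ± 0.52, adjusted p = 0.004). Pdgfra, the receptor kinase gene Axl and Angptl2 were the ones that fell, and the Axl and Angptl2 calls were lost without W2 replicate 2 (0.16 and 0.181) or Uninj replicate 1 (0.12 and 0.0562), that of Angptl2 also without Uninj replicate 2 (0.132).

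Of 32 adhesion genes 5 rose (Cdh2, Itgbl1, Cdh11, Ncam1 and Itgb5) and 1 fell (Sdc2), with a median of 0.74, and without Uninj replicate 2 a single one was called. Cdh2, the N-cadherin gene, had 69.5 and 52 CPM in W2 and 12.6 and 6.91 CPM in Uninj (2.64 ± 0.39, edgeR adjusted p = 0.00355), and Itgbl1, an integrin beta-like protein gene, had 1722 and 1643 CPM in W2 and 301 and 309 CPM in Uninj (2.47 ± 0.38, adjusted p = 0.00512). Cdh2 passed in all 4 leave-outs, whereas the Itgbl1 call was lost without Uninj replicate 1 (0.0591) or Uninj replicate 2 (0.0856). Without Uninj replicate 2, Cdh11 (0.187), Ncam1 (0.0588), Itgb5 (0.54) and Sdc2 (0.309) were lost too. Cdh11 (0.117), Itgb5 (0.237) and Sdc2 (0.163) were lost without W2 replicate 2, Cdh11 (0.0843) and Sdc2 (0.0589) without W2 replicate 1, and Itgb5 (0.0649) without Uninj replicate 1. Of 36 matrix proteases and inhibitors, 2 rose: Timp1, an inhibitor of metalloproteinases, with 215 and 289 CPM in W2 and 47.1 and 18.8 CPM in Uninj (2.93 ± 0.43, adjusted p = 0.00499), and Ctsk, the collagen-degrading cathepsin K gene, with 405 and 267 CPM in W2 and 107 and 107 CPM in Uninj (1.65 ± 0.28, adjusted p = 0.00866). The Timp1 call was lost without W2 replicate 2 (0.0569).

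Among 46 fibroblast transcription factors, 4 rose and none fell (median 0.09). Runx1, a Runt-domain factor gene, had 114 and 142 CPM in W2 and 18.1 and 7.5 CPM in Uninj (3.32 ± 0.37, edgeR adjusted p = 0.000447). Its call held with any of the 4 libraries left out and with the Y-linked term (edgeR adjusted p = 0.0166). Of 91 named called genes 32 passed with that term and 59 did not. Among the 59 were Col8a1 (0.0882), Lsamp (0.0785), Frzb (0.0613) and Cdh2 (0.0588). Wwtr1, which encodes the coactivator TAZ, and Foxp1 and Sox4 rose by 1.16, 1.07 and 0.94 on the log2 scale, and each of these calls was lost when at least 1 library was left out. Meox1, a homeobox gene linked to fibroblast activation, had 371 and 299 CPM in W2 and 276 and 254 CPM in Uninj, a difference that did not pass (0.34 ± 0.20, adjusted p = 0.614).

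Macrophage genes were higher in the W2 libraries. Of 24 macrophage and monocyte markers, 10 rose and none fell, their median log2 change being 3.39. In both W2 libraries 21 of the 24 lay above both Uninj libraries. Among all tested genes 1.44% were called higher, and 19.3% lay above both Uninj libraries in both W2 libraries. Their summed level was 671 and 821 CPM in W2 and 95.7 and 105 CPM in Uninj. The 10 increased markers became 9 without W2 replicate 1, 6 without W2 replicate 2 and 3 with the Y-linked term. Lyz2, the lysozyme gene of myeloid cells, had 259 and 233 CPM in W2 and 40.8 and 12.6 CPM in Uninj (3.20 ± 0.57, edgeR adjusted p = 0.025), a call lost without W2 replicate 1 (0.0877) or W2 replicate 2 (0.167). Fcer1g, an Fc receptor subunit gene, had 18.2 and 26.4 CPM in W2 and 1.65 and 1.13 CPM in Uninj (4.0 ± 0.46, adjusted p = 0.000596). Adgre1, which encodes the macrophage marker F4/80, had 17.2 and 36.3 CPM in W2 and 0.853 and 0.75 CPM in Uninj (5.05 ± 0.74, adjusted p = 0.00469). With limma-voom, Lyz2, Ctss and Fcgr3 passed (adjusted p 0.00341, 0.0368 and 0.0337), but Fcer1g (0.107) and Adgre1 (0.236) did not. Nor did Lgals3 (0.0584), Trem2 (0.161), Laptm5 (0.199), Tyrobp (0.227) and C1qa (0.25) pass that test. Fcer1g passed in all 4 leave-outs, and the Adgre1 call was lost without Uninj replicate 1 (0.064) or Uninj replicate 2 (0.0846). The pan-leukocyte gene Ptprc, with 12.9 and 8.55 CPM in W2 and 1.01 and 6.32 CPM in Uninj, and the receptor gene Csf1r, with 14.2 and 7.48 CPM in W2 and 2.99 and 0.0536 CPM in Uninj, did not pass. Of the 4 libraries, W2 replicate 2 alone had counts of Itgam, the CD11b gene (65 counts), and Cd163 and Fcgr1 had none in W2 replicate 2. The sort gate was set on eGFP alone, per the labels, and in bulk libraries fewer cells of a type and less RNA per cell cannot be told apart.

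Class II antigen genes were higher in W2, while the antigen presentation list as a whole was not. Cd74, the invariant chain gene, had 186 and 387 CPM in W2 and 40.2 and 31.6 CPM in Uninj (3.0 ± 0.45, edgeR adjusted p = 0.00618), and H2-Ab1 and H2-Eb1 rose by 2.5 and 2.26 on the log2 scale. The Cd74 call was lost without Uninj replicate 1 (0.0729) or Uninj replicate 2 (0.123), and that of H2-Eb1 without Uninj replicate 2 (0.0568). They were the 3 of 19 antigen presentation genes that passed; the median log2 fold change of the list was -0.21, and it summed to 3124 and 3885 CPM in W2 and 3582 and 3813 CPM in Uninj. Of 37 cytokines and chemokines, 5 rose and 2 fell. The chemokine genes Ccl3, Ccl6 and Ccl9, which macrophages are known to produce, were among the 5, with the receptor gene Il1rl1 and Spp1. Ccl9 had 16.8 and 15.4 CPM in W2 and 0.96 and 0.214 CPM in Uninj (4.76 ± 0.52, adjusted p = 0.000405). Spp1, the osteopontin gene, had 267 and 210 CPM in W2 and 33.6 and 22 CPM in Uninj (3.10 ± 0.30, adjusted p = 0.00015). With limma-voom, Spp1 passed (adjusted p = 0.000457) and Ccl9 did not (0.0674). Ccl9 and Spp1 passed in all 4 leave-outs. Ccl6 was lost without W2 replicate 1 (0.0609), W2 replicate 2 (0.13), Uninj replicate 1 (0.209) or Uninj replicate 2 (0.0699), Ccl3 without Uninj replicate 1 (0.0637), and Il1rl1 without W2 replicate 2 (0.0965), Uninj replicate 1 (0.124) or Uninj replicate 2 (0.159). Ccl8 and Ccl11 were the ones that fell, and the Ccl8 call was lost without W2 replicate 2 (0.0694) or Uninj replicate 2 (0.0903), that of Ccl11 without W2 replicate 1 (0.0637) or W2 replicate 2 (0.13). Of 22 complement genes 3 rose (C1qa, Cfi and C3ar1), and 1 did without W2 replicate 2. C3ar1 passed in all 4 leave-outs, C1qa was lost without W2 replicate 2 (0.0537), and Cfi without W2 replicate 1 (0.0708), W2 replicate 2 (0.0621), Uninj replicate 1 (0.179) or Uninj replicate 2 (0.231). Of 37 interferon-stimulated genes 1 fell, Ifitm1, a call lost without W2 replicate 1 (0.0635), W2 replicate 2 (0.0825) or Uninj replicate 2 (0.439). With limma-voom, the complement genes C1qa (adjusted p = 0.25), Cfi (0.108) and C3ar1 (0.149) did not pass. The part of macrophage RNA in the values of these lists was not tested.

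In each list of markers of other cell types, at most 1 member was called higher and at most 1 lower. Over all tested genes, 1.44% were called higher and 0.454% lower. For 19.3% of them both W2 libraries lay above both Uninj libraries, and for 22.4% below both. Endothelial markers summed to 1165 and 1070 CPM in W2 and 1166 and 1061 CPM in Uninj, with 1 of 20 higher (Erg) and 1 lower (Tek); 11 lay above both Uninj libraries in both W2 libraries and 2 below both, and the median was 0.61. The Tek call was lost without W2 replicate 1 (0.119), W2 replicate 2 (0.157), Uninj replicate 1 (0.312) or Uninj replicate 2 (0.0784). Cardiomyocyte markers summed to 231 and 129 CPM in W2 and 205 and 256 CPM in Uninj, and 1 of 20 rose: Nppa, the atrial natriuretic peptide gene, with 38.1 and 42.2 CPM in W2 and 0.906 and 1.66 CPM in Uninj (4.96 ± 0.74, edgeR adjusted p = 0.00392). Erythroid genes summed to 1438 and 3717 CPM in W2 and 4132 and 5986 CPM in Uninj, and none of 5 passed. Schwann cell markers summed to 1191 and 1042 CPM in W2 and 1816 and 1728 CPM in Uninj, with none of 8 passing. Epicardial and mesothelial markers summed to 252 and 107 CPM in W2 and 93.8 and 75.6 CPM in Uninj. Of 13 tested, 9 lay above both Uninj libraries in both W2 libraries, with a median log2 fold change of 3.52, but none was called higher by edgeR and 1, Aldh1a2, was called lower. DESeq2 called 5 of the 13 higher. All but 1 were higher in W2 replicate 1 than in W2 replicate 2. Upk3b, a uroplakin gene of mesothelium, had 41.5 and 20.3 CPM in W2 and 0.853 and 0.107 CPM in Uninj (adjusted p = 0.0837). The part of such cells in the other results was not tested. Msln, the mesothelin gene of the epicardial surface, had 40.9 and 2.48 CPM in W2 and no count in Uninj, and did not pass (adjusted p = 0.133). Neutrophil markers summed to 4.27 and 1.18 CPM in W2 and 0.32 and 0.268 CPM in Uninj, and lymphocyte markers to 50 and 12.7 CPM in W2 and 2.77 and 4.13 CPM in Uninj. Igkc, the kappa light chain gene of B cells, was the single lymphocyte or neutrophil gene to pass, with 41.5 and 5.57 CPM in W2 and 3 and 0 counts in Uninj, and its call was lost without W2 replicate 1 (0.178) or Uninj replicate 2 (0.173).

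Lists of cell growth, metabolic and housekeeping genes are set here against the 1.89% of all tested genes that were called. At that share, no or 1 called member in a list of this size does not set it apart. Of 42 cell cycle genes none rose and 1 fell, with a median of 0.11 and summed levels of 519 and 543 CPM in W2 and 548 and 486 CPM in Uninj. Without Uninj replicate 1, 5 cell cycle genes were called higher. The gene that fell was Cenpe, a kinetochore motor gene, with no count in either W2 library and 7.62 and 3.16 CPM in Uninj, at least 32.2-fold lower against the floor. Mki67, the proliferation marker, had 3.94 and 2.36 CPM in W2 and 10.7 and 0.107 CPM in Uninj, with W2 inside the Uninj range. None of 35 AP-1 and immediate-early genes, 44 ribosomal protein genes, 18 heat shock chaperones, 42 respiratory chain genes, 23 glycolysis genes or 13 mitochondrially encoded genes passed; without W2 replicate 1, 3 of the mitochondrial genes and 2 of the immediate-early genes were called lower. The most abundant immediate-early gene, Fos, had 6779 and 5690 CPM in W2 and 5929 and 7927 CPM in Uninj. In endoplasmic reticulum folding 1 of 38 genes rose, the disulfide isomerase gene Pdia5. In lipid and retinoid metabolism 1 of 41 rose, the retinoid carrier gene Crabp2, and 2 fell, the desaturase gene Scd1 and the retinoic acid synthesis gene Aldh1a2. These 4 calls were lost without W2 replicate 2 (Pdia5 0.0635, Crabp2 0.0986, Scd1 0.2 and Aldh1a2 0.129). Pdia5 (0.0587), Crabp2 (0.174) and Scd1 (0.224) were also lost without Uninj replicate 1, and Pdia5 (0.111) and Crabp2 (0.0554) without Uninj replicate 2.

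The 2 W2 libraries differed from each other more than the Uninj libraries did. Between W2 replicate 2 and W2 replicate 1, 627 of the tested genes differed at least 4-fold on the scale of CPM + 1, against 120 between the 2 Uninj libraries. The SD of the log2 ratio over genes was 0.913 in W2 and 0.614 in Uninj. Mitochondrially encoded genes summed to 42988 and 11171 CPM in W2 and 25823 and 26959 CPM in Uninj, and all 13 were lower in W2 replicate 2 than in W2 replicate 1, with a median log2 ratio of -2.10. The cytochrome oxidase gene mt-Co1 had 11248 and 2343 CPM in W2 and 6571 and 6666 CPM in Uninj. A second subunit gene of the same complex, mt-Co3, had 2704 and 0.113 CPM in W2 (48709 and 2 counts) and 511 and 1650 CPM in Uninj. Neither library's mitochondrial sum matched that of Uninj, W2 replicate 1 being above it and W2 replicate 2 below.

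Genes that were high in W2 replicate 2 alone came from several cell functions. Ccl21a, a chemokine gene of lymphatic vessels with near-identical copies between which reads may be split, had 32.9 and 354 CPM in W2 and 9.01 and 4.61 CPM in Uninj. Car3, a carbonic anhydrase gene of fat and muscle, had 4.77 and 92.8 CPM in W2 and 11.9 and 17 CPM in Uninj. With Tagln, Metrnl, Arf6, Ackr3, Nsmce4a, Zc3hav1, Ccdc68 and Eno1b these were the 10 genes with the highest ratio of W2 replicate 2 to W2 replicate 1 among those with at least 50 CPM in either. In the other direction the 10 included Cilp, Thbs4 and stress-response genes: the AP-1 subunit gene Junb had 1630 and 249 CPM in W2 and 1391 and 1474 CPM in Uninj, and Errfi1, a feedback inhibitor gene of EGF receptors, had 477 and 126 CPM in W2 and 252 and 382 CPM in Uninj. For Junb and Errfi1 W2 replicate 2 was the library below all the others. Of all 14968 tested genes, 6663 were higher in W2 replicate 2 than in W2 replicate 1. Interferon-stimulated genes were higher there in 28 of 37 cases (median log2 ratio 0.65), nuclear-encoded respiratory chain genes in 36 of 42 (0.50) and ribosomal protein genes in 38 of 44 (0.27), and resting fibroblast genes were lower there in 33 of 40 (median -0.55). These are differences between 2 libraries of 1 group and were not tested.

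**Figure D3:**
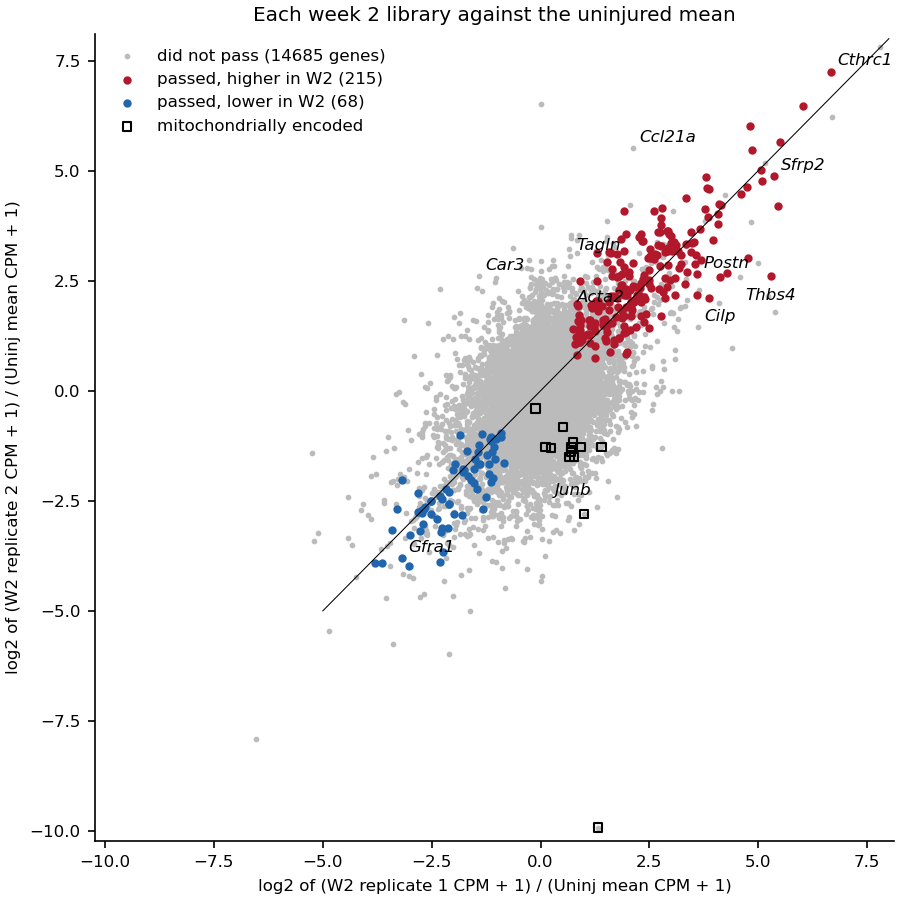
Each tested gene by the log2 ratio of CPM + 1 to the Uninj mean in W2 replicate 1 (horizontal) and W2 replicate 2 (vertical), with the line of equality. Called genes (215 red, 68 blue) lie in the upper right and lower left, mitochondrially encoded genes (squares) below the line, and Cilp and Thbs4 below and Tagln and Ccl21a above it.

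The genes called against Uninj varied in the time at which they were highest. The group with the highest mean was D7 for 103 of the 215 genes called higher, W2 for 62, W4 for 27 and D3 for 23, with none highest in Uninj. Of the 68 genes called lower, the lowest mean was in W2 for 39, at D7 for 19, at D3 for 6 and at W4 for 4. These genes were chosen for their difference between W2 and Uninj. Uninj could therefore not be the highest group of an increased gene or the lowest of a decreased one, and the counts are a description. Uninj had the lowest mean for 183 of the 215 genes and the highest for 52 of the 68. Over all tested genes W2 had the highest mean in 17.8% and the lowest in 18.2%. The highest mean was at D7 in 16.8%, at D3 in 26.1% and at W4 in 21.2% of them. The lowest was at D7 in 18.9%, at D3 in 26.1% and at W4 in 18.8%. Postn had a mean of 4885 CPM in W2, against 12351 CPM at D7 and 2945 CPM at W4. Sfrp2 was highest in W2, with a mean of 3864 CPM against 2024 CPM at D7 and 2549 CPM at W4. Runx1 also had its highest mean in W2, at 128 CPM against 81.7 CPM at D7 and 89.5 CPM at W4. Comp had means of 54.1 CPM at D3, 540 CPM at D7, 1241 CPM in W2 and 3445 CPM at W4. For Postn, Sfrp2, Runx1 and Comp the contrasts of W2 with D7 and with W4 did not pass (lowest adjusted p 0.0655, for Postn against D7).

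A direct contrast of W2 with D7 called 97 of 14968 genes (0.648%), 29 higher (0.194%) and 68 lower (0.454%) in W2; this contrast and that with W4 share the W2 libraries with the comparison against Uninj. Col1a1 was lower, with 3514 and 2221 CPM in W2 and 8748 and 16626 CPM at D7 (-2.15 ± 0.42, edgeR adjusted p = 0.0475), a call lost without W2 replicate 1 (0.0572), W2 replicate 2 (0.174) or D7 replicate 2 (0.328). Cell cycle genes were the list with the most members lower: 7 of 42, with a median of -1.97. Ncaph, a condensin subunit gene, had 0.888 and 1.69 CPM in W2 and 18.9 and 42.9 CPM at D7 (-4.58 ± 0.67, adjusted p = 0.0145), and Kif22, a mitotic kinesin gene, had 1.17 and 1.24 CPM in W2 and 23.8 and 19.3 CPM at D7 (-4.16 ± 0.66, adjusted p = 0.0217). Of the genes higher in W2, Ptx3, a pattern recognition gene, had 232 and 252 CPM in W2 and 50.1 and 45.2 CPM at D7 (2.34 ± 0.27, adjusted p = 0.00355), and Has1, a hyaluronan synthase gene, had 296 and 241 CPM in W2 and 73.3 and 54.5 CPM at D7 (2.07 ± 0.36, adjusted p = 0.0331). Neither was called against Uninj. The contrast of W2 with D7 called 4 genes without D7 replicate 2 and 424 without D7 replicate 1. It called 39 without W2 replicate 2, 298 without W2 replicate 1 and 20 with the Y-linked term. Without D7 replicate 2 the calls of Ncaph (0.105), Kif22 (0.0866), Ptx3 (0.0573) and Has1 (0.314) were lost. Without W2 replicate 2 those of Kif22 (0.0952) and Has1 (0.0741) were lost, and Has1 also without W2 replicate 1 (0.0589).

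Against W4, W2 had 91 called genes (0.608%), 23 higher (0.154%) and 68 lower (0.454%). Cthrc1 was higher, with 1403 and 2109 CPM in W2 and 255 and 324 CPM at W4 (2.60 ± 0.28, edgeR adjusted p = 0.00713). C1qtnf3 had 566 and 764 CPM in W2 and 28 and 96.6 CPM at W4 (3.42 ± 0.54, adjusted p = 0.0374), and Fbn2 had 66.1 and 45.5 CPM in W2 and 5.94 and 11.3 CPM at W4 (2.69 ± 0.43, adjusted p = 0.0287). Cd248, the endosialin gene of stromal cells, was lower, with 56.8 and 27.4 CPM in W2 and 356 and 240 CPM at W4 (-2.82 ± 0.42, adjusted p = 0.0287). Gsn had 6765 and 3364 CPM in W2 and 31268 and 27444 CPM at W4, a difference that did not pass (-2.54 ± 0.54, adjusted p = 0.0705). The count of calls rested on single libraries: 3 genes without W2 replicate 2, 702 without W2 replicate 1, 7 without W4 replicate 1 and 55 without W4 replicate 2, with 5 under the Y-linked term. Cthrc1 passed in each of these 4 leave-outs (adjusted p 0.00207 to 0.04), whereas C1qtnf3 (0.24), Fbn2 (0.0613) and Cd248 (0.133) did not pass without W2 replicate 2, nor Fbn2 (0.239) and Cd248 (0.179) without W4 replicate 1.

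**Figure D4:**
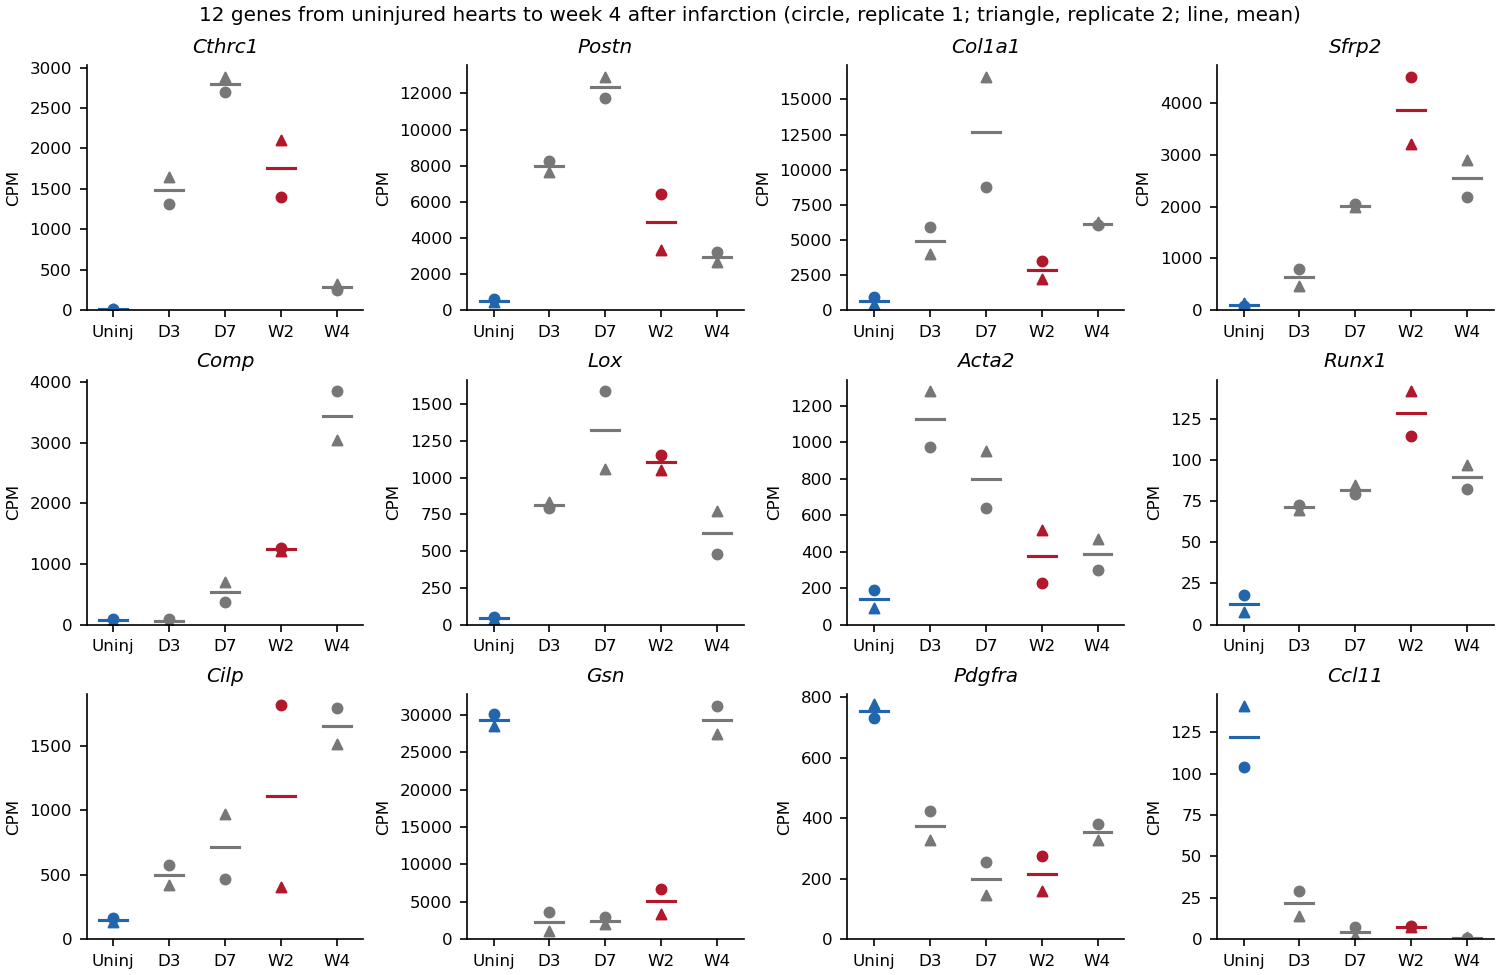
CPM of 12 genes in each RNA library, from Uninj through D3, D7 and W2 to W4, with symbols for the replicates and a line at the group mean. W2 (red) has the highest mean of the 5 groups for Sfrp2 and Runx1, lies between D7 and W4 for Postn, Cthrc1 and Comp, and is low for Gsn, which is near its Uninj level at W4.

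Accessible chromatin near the called genes was compared in the ATAC-seq peak lists of the same groups, whose peaks were not used in the RNA calls. Whether both assays drew on the same mice or sorts is not stated, and peaks on chromosome Y numbered 62 and 48 in W2 and 19 and 31 in Uninj. On chromosomes 1 to 19, X and Y the lists held 77947 and 79702 peaks in W2 and 63901 and 71909 in Uninj. Regions with a peak in both W2 libraries and in neither Uninj library numbered 8547 (gained), and the reverse numbered 4314 (lost). A RefSeq start site (GRCm38.p6) was known for 161 of the genes called higher, 45 of those called lower and 11019 of all tested. A gained region lay within 50 kb of the start of 122 of the 161 genes called higher (75.8%), against 10 of the 45 called lower (22.2%) and 39.4% of all tested genes. A lost region lay there for 19 of the genes called higher (11.8%), 26 of those called lower (57.8%) and 17.3% of all. Without the macrophage markers the share of increased genes with a gained region was 76%.

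Some genes called higher carried several gained regions and others none, with a mean of 1.80 per gene, against 0.618 over all tested genes. Runx1 had 9 within 50 kb of a start and no lost region, Ltbp2, Palld, Actn1 and Erg had 6 each, Kcnj15 4, Postn 3 and Sfrp2 2. Pdgfra had 2 lost regions and no gained one, Gsn 2 of each kind, and Gfra1 none of either. Of other increased genes, Aspn, Timp1, Frzb and Itgbl1 had none of either. Fmod had 1 gained and 4 lost regions, and Nppa 1 lost and no gained one. Zfp385a, called lower, had 1 gained and no lost region. At the start sites themselves, most called genes had a peak in all 4 libraries: 75.8% of those called higher and 93.3% of those called lower, against 88.6% of all tested genes. A peak within 1 kb of a start in both W2 libraries and neither Uninj library was found for 5 of the 161 genes called higher (3.11%), none of the 45 called lower and 0.898% of all. These 5 were Lyz2, Pld4, Emb, Il1rl1 and Tm4sf1, named after their values were seen. Of the 45 genes called lower, Ccl8 had a peak at its start in both Uninj libraries and neither W2 library.

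**Figure D5:**
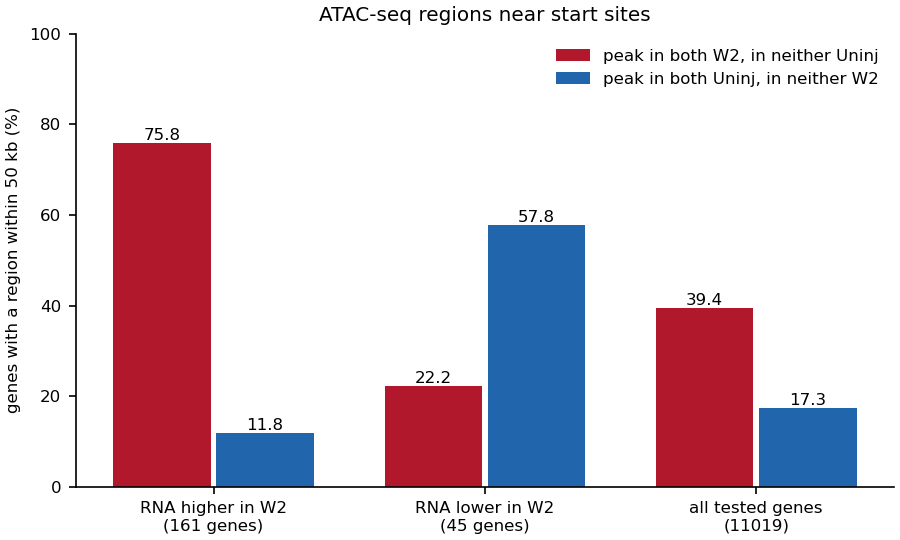
Share of genes (vertical axis, %) with an ATAC-seq region gained (red) or lost (blue) within 50 kb of a start site, for genes called higher in W2 (161), called lower in W2 (45) and all tested (11019). Gained regions lie near 75.8% of the increased genes and lost regions near 57.8% of the decreased ones, against 39.4% and 17.3% of all tested genes.

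The promoters of 3 of these genes are shown as examples of start sites that differed in accessibility in the same direction as their RNA. Those of Pld4, Emb and Il1rl1 met the same rule and are not shown. Tm4sf1, a tetraspanin-like membrane protein gene, had 732 and 1024 CPM in W2 and 396 and 387 CPM in Uninj. Lyz2 is the lysozyme gene described above, and Ccl8, a monocyte-attracting chemokine gene, had 3.55 and 2.98 CPM in W2 and 16.3 and 21 CPM in Uninj. Each sequence runs 5′ to 3′ on the gene's strand, from 250 bases before to 50 bases after the start, from RefSeq (GRCm38.p6). Tm4sf1 lies at chr3:57301939-57302238 (minus strand), Lyz2 at chr10:117282223-117282522 (minus strand) and Ccl8 at chr11:82114935-82115234 (plus strand).
Tm4sf1: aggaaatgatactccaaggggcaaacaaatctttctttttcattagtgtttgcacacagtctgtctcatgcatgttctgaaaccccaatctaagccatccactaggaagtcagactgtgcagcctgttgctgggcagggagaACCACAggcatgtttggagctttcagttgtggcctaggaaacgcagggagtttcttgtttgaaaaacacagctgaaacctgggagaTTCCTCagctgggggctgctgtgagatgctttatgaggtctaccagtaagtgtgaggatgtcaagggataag
Lyz2: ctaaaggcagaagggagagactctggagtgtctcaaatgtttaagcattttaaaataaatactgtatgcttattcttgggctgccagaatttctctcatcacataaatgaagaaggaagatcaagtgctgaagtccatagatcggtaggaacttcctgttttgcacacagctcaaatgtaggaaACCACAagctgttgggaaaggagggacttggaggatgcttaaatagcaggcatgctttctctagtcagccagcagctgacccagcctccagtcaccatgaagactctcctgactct
Ccl8: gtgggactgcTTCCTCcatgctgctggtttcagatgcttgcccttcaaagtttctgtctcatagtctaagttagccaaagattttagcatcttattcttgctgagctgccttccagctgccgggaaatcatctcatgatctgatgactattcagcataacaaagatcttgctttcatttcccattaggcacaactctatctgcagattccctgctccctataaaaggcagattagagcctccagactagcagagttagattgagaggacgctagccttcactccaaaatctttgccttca
Capitals mark matches, on either strand, to TGTGGT (the core bound by RUNX factors) and GAGGAA (the core of many ETS factor sites). The AP-1 motif TGANTCA and the TEAD motif GGAATG were also searched and had no match in these 3 windows. Tm4sf1 held 1 match to the RUNX letters and 1 to the ETS letters, Lyz2 1 to the RUNX letters and Ccl8 1 to the ETS letters. Of the windows not shown, that of Emb had no match to any motif and that of Pld4 had 1 to the ETS letters. Il1rl1 had 1 ETS match at 1 start, and 1 RUNX and 1 TEAD match at another. Over 32851 RefSeq promoters of the same length, 16.8% held TGTGGT, 28.3% GAGGAA, 7.81% TGANTCA and 14.7% GGAATG. Such matches describe the letters and are not evidence of binding.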

How the data were processed

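Gene-level expected counts, deposited by the authors without scaling between libraries, were the starting point for RNA; which program made them, and whether it used strand, is not given in the sources. The deposited ATAC-seq files are peak lists per library, with a fold enrichment (a ratio) and the −log10 of p and q for each peak by the authors' caller. The submitters' processing notes name the builds mm10 and GRCm38 and, without roles, MACS2, Bowtie2 2.3, STAR 2.5.3a, DESeq2, FastQC and Trim Galore 0.6.

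After rounding to whole numbers, edgeR 4.0.16 (R 4.3.3) was run with TMM scaling, filterByExpr by group (14968 of 25746 genes), and a robust quasi-likelihood fit of all 10 RNA libraries (5 residual degrees of freedom) with Benjamini-Hochberg adjustment at 0.05 within each contrast. CPM (rounded counts scaled to TMM-adjusted library size) are not per length. Tests were checked on simulated data. For a group at 0, folds were bounded with 3 counts in each library. Counting intervals cover counting error only, since amplified reads without molecular identifiers are not independent molecules. Reads shared between related genes are uncertain, as for the class II, Ccl and ribosomal families.

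The members and the 38 gene lists were chosen with earlier results of these data known. The genes named for a contrast are the 12 and 12 (W2 against Uninj) or 5 and 5 (W2 against D7 and W4) largest called log2 fold changes at a mean of at least 20 CPM with groups that do not overlap, leaving out predicted, mitochondrial, ribosomal, immunoglobulin and Y-linked genes, up to 4 called members per list and a set of scar genes given whatever their result. Other genes with values are list members. Peaks were placed by overlap of at least 1 base; 11019 genes had a RefSeq start. Alternatives were other scalings, filters, tests and left-out libraries.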

Additional observations from a re-analysis of the deposited data

Results flagged for a closer look

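Among the named genes, those called in W2 against Uninj that also differed between W2 and another time, by a test of that difference, were singled out. Only named genes were searched, so the counts do not cover all called genes. Against D7, 4 such genes were lower in W2: Cenpe by a fitted log2 fold change of -11.79, which depends on the prior count because W2 had no count, C3ar1 (-2.56), Col1a1 (-2.15) and Csrp2 (-1.22). C3ar1, a complement receptor gene of macrophages, had 25.3 and 19.1 CPM in W2 and 103 and 158 CPM at D7. Csrp2, a LIM-domain gene of contractile cells, had 115 and 120 CPM in W2 and 249 and 298 CPM at D7. The D7 libraries lay above the W2 libraries in each of these genes. Without D7 replicate 2 the calls of C3ar1 (adjusted p = 0.314), Col1a1 (0.328) and Csrp2 (0.299) were lost, as they were without W2 replicate 2 (0.173, 0.174 and 0.119) and without W2 replicate 1 (0.0726, 0.0572 and 0.0721), while Cenpe passed in each leave-out of a W2 or D7 library.

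Against W4, 6 such genes were higher in W2: C1qtnf3 (log2 fold change 3.42), Lilrb4a (2.82), Fbn2 (2.69), Cthrc1 (2.60), Ms4a7 (2.5) and Aspn (1.31). Lilrb4a and Ms4a7 are genes of macrophages, with 19.6 and 25.8 CPM in W2 and 1.79 and 4.58 CPM at W4 for Lilrb4a, and 28 and 58.5 CPM in W2 and 4.27 and 10.9 CPM at W4 for Ms4a7. Aspn had 4278 and 4951 CPM in W2 and 1712 and 2010.3 CPM at W4. The fold changes also depended on the W4 library used. Without W4 replicate 1 the log2 fold change was 2.79 for C1qtnf3, 2.31 for Lilrb4a, 2.31 for Fbn2 and 2.44 for Cthrc1. Without W4 replicate 2 it was 4.59, 3.67, 3.24 and 2.80 for the same genes. Lower in W2 than at W4 were Cenpe (-9.67, again fitted against no count) and Angptl2 (-1.82), an angiopoietin-like secreted protein gene with 121 and 62.8 CPM in W2 and 417 and 231 CPM at W4. Without W2 replicate 2, the only one of these 8 to pass was Cthrc1 (edgeR adjusted p = 0.04). Summed macrophage markers were at 671 and 821 CPM in W2, against means of 3364 CPM at D7 and 291 CPM at W4, and their part in these differences was not tested.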

How the results depend on the processing

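Counts of called genes depended on the libraries and the test. For W2 against Uninj the main count of 283 became 803 with DESeq2, 796 without the low-count filter, 171 in a fit of the 2 groups alone and 60 with a term for Y-linked counts, and lay between 134 (without Uninj replicate 2) and 450 (without W2 replicate 1) with 1 library left out. For W2 against D7 the main 97 became 1057, 1029, 6 and 20 under the same settings, and 187 with limma-voom, with 4 to 424 when 1 library was left out. For W2 against W4 the main 91 became 920, 952, 0 (edgeR, with 1950 genes at an unadjusted p under 0.05) and 5, and 149 with limma-voom, with 3 to 702 when 1 library was left out. Other scalings gave counts within 1.5 times and kept the median of all genes within 0.1 of its value. In the fit of W2 and Uninj alone, 131 of the 171 called genes were among the 283. That fit lost 36 of the 91 named calls against Uninj. Of 91 named genes called against Uninj, all 91 kept the call with DESeq2 and 65 with limma-voom, 32 with the Y-linked term, and 52 to 71 with 1 of the 4 libraries left out.

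Directions turned in 4 named genes, none of them called: with 1 library left out the log2 fold change ranged from -1.38 to 0.42 for Tcf21, from -0.10 to 1.06 for Chad and from -1.75 to 4.80 for Mki67, which passed at the upper end (without Uninj replicate 1). Mki67 was at 1.36 with limma-voom, and Chad and Ddx3y at -1.68 and -1.12 with the Y-linked term; the cause was not tested. Replicate numbers showed no pairing of libraries. The gene-wise differences between replicate 1 and replicate 2 of 1 group correlated with those of another group between -0.018 and 0.029. With the replicate number as a block, the counts were 304, 114 and 126. For regions near genes, 20 kb in place of 50 kb gave gained regions at 50.9% of increased and 4.44% of decreased genes (20.3% of all), and peaks with a −log10 q of at least 10 gave 52.2% and 13.3% (21% of all), both chosen after seeing the data.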

Other observations

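Kcnj15 and Erg, which both rose in W2, are neighbours on chromosome 16, at chr16:95257558-95300260 and chr16:95359169-95586593 (GRCm38). Erg, an ETS transcription factor gene used as an endothelial marker, had 21.4 and 21.7 CPM in W2 and 0.373 and 1.18 CPM in Uninj (log2 fold change 4.78 ± 0.63, edgeR adjusted p = 0.00174), while the endothelial markers Pecam1, Cdh5 and Kdr did not pass. Pecam1 had 99.2 and 109 CPM in W2 and 68 and 55.8 CPM in Uninj. Gained ATAC-seq regions numbered 6 within 50 kb of an Erg start and 4 within 50 kb of a Kcnj15 start. No Kcnj15 start had a peak within 1 kb in any of the 4 ATAC-seq libraries, and Erg had one in all 4. The next tested gene beyond Erg, Ets2, had 51.5 and 41.8 CPM in W2 and 43.3 and 61.1 CPM in Uninj (adjusted p = 0.962). The pair was noticed after the values were seen.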
